A study of Mus musculus with 4 samples.

Results

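Among the genes measured in prostate of mice with altered Rb1 and Trp53, 33 genes of DNA damage repair and checkpoint signalling were followed. They were taken by name from a list drawn up with earlier results of these data known, and every probe carrying one of the names was kept. The arrays named 29 of the 33 genes, through 51 of 41174 probes, and 38 of these probes, for 27 genes, were bright enough to be tested. RNA came from the prostates of 4 mice aged 60 days, of mixed C57BL/6:129/SVJae:FVB strain. The 2 mutant mice carried 1 Rb1 allele coding for the R654W protein, which by the series title is deficient in E2F binding, over 1 conditional Rb1 allele (Rb1R654W/F:Trp53F/F:PB-cre4). The 2 null mice carried conditional alleles at both Rb1 copies (Rb1F/F:Trp53F/F:PB-Cre4). All 4 mice also had conditional alleles at both Trp53 copies and the PB-Cre4 transgene, whose probasin promoter drives Cre in prostate epithelium, so stroma, vessels and immune cells keep their alleles. On each of 4 two-colour arrays 1 mouse was labelled red (Cy5) and set against the same green (Cy3) pool of RNA from the prostates of 3 wild-type mice. Values are log2 ratios of mouse over pool on that array, after normexp and loess unless another processing is named. A value of 0 thus means the ratio usual for probes of that brightness on the array, which need not be equal signal. Above or below the pool is used in that sense.

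Cells answer broken DNA in steps. The MRE11, RAD50 and NBN complex and PARP1 find the lesion, the kinases ATM, ATR, CHEK1 and CHEK2 halt the cell cycle, and repair follows by homologous recombination, by end joining or, for crosslinked strands, through the Fanconi anaemia proteins. Many of these genes are made mostly in dividing cells, and a number of them are known targets of E2F transcription factors, which the retinoblastoma protein holds in check. p53, the product of Trp53, is a main effector of the same checkpoint.

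Mutant mice 1 and 2 had 26168 and 25549 probes well above background, and null mice 1 and 2 had 22183 and 25047. Null mouse 1 stood apart from the rest: its median mouse signal was 20.53, against 55.07 to 90.06 in the other 3 mice. Heat shock genes, 16 probes, had a median log2 ratio of 3.53 in that mouse and of -0.12 to 0.22 in the others. All 10 prostate epithelium marker genes were well above background in all 4 mice, as were 5 of 5 basal, 8 of 8 smooth muscle and 7 of 7 macrophage marker genes. Seminal vesicle markers, 3 tested probes for 3 genes, were below the pool, at means of -3.52 and -0.44 in mutant mice and of -3.69 and -2.50 in null mice. Of the 5 seminal vesicle marker genes on the arrays, 2 to 4 were above background per mouse. The part of that tissue in the member values was not tested. The macrophage markers averaged 0.69 and 0.61 in the mutant pair, and -0.25 and 1.11 in null mice 1 and 2. In such bulk tissue, fewer cells of a type and less RNA per cell cannot be told apart. The alleles were not checked by expression: Rb1 read -0.65 and -0.24 in mutant prostate and 0.09 and -0.87 in null prostate, and whether its probe lies in the deleted part is not established here.

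No probe of a member gene passed an adjusted p under 0.05 in limma in any of 4 comparisons. Over all 24914 probes tested, 0.0% passed between mutant and null mice, 0.00401% in mutant mice against the pool, 0.0% in null mice against the pool and 0.012% in the mean of both genotypes against the pool. The smallest adjusted p of a member was 0.985, 0.453, 0.473 and 0.194 in that order. At an unadjusted p under 0.05 in limma there was 1 member probe between mutant and null mice, where the share over all probes was 2.18%. There were 3 in mutant mice against the pool (all probes 10.6%), 6 in null mice against the pool (all probes 10.2%) and 7 in the mean of both genotypes (all probes 17.6%). As shares of the 38 member probes these are 2.63%, 7.89%, 15.8% and 18.4%. On the log2 scale, the median difference between mutant and null mice was 0.07 over the member probes and 0.02 over all probes. The median member change against the pool was 0.01 in mutant mice and -0.07 in null mice, where all probes gave 0.03 and 0.02. The number of arrays limits these results: the median standard error of a mutant minus null difference was 0.218 on the log2 scale, larger than most of the member differences.

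**Figure D1:**
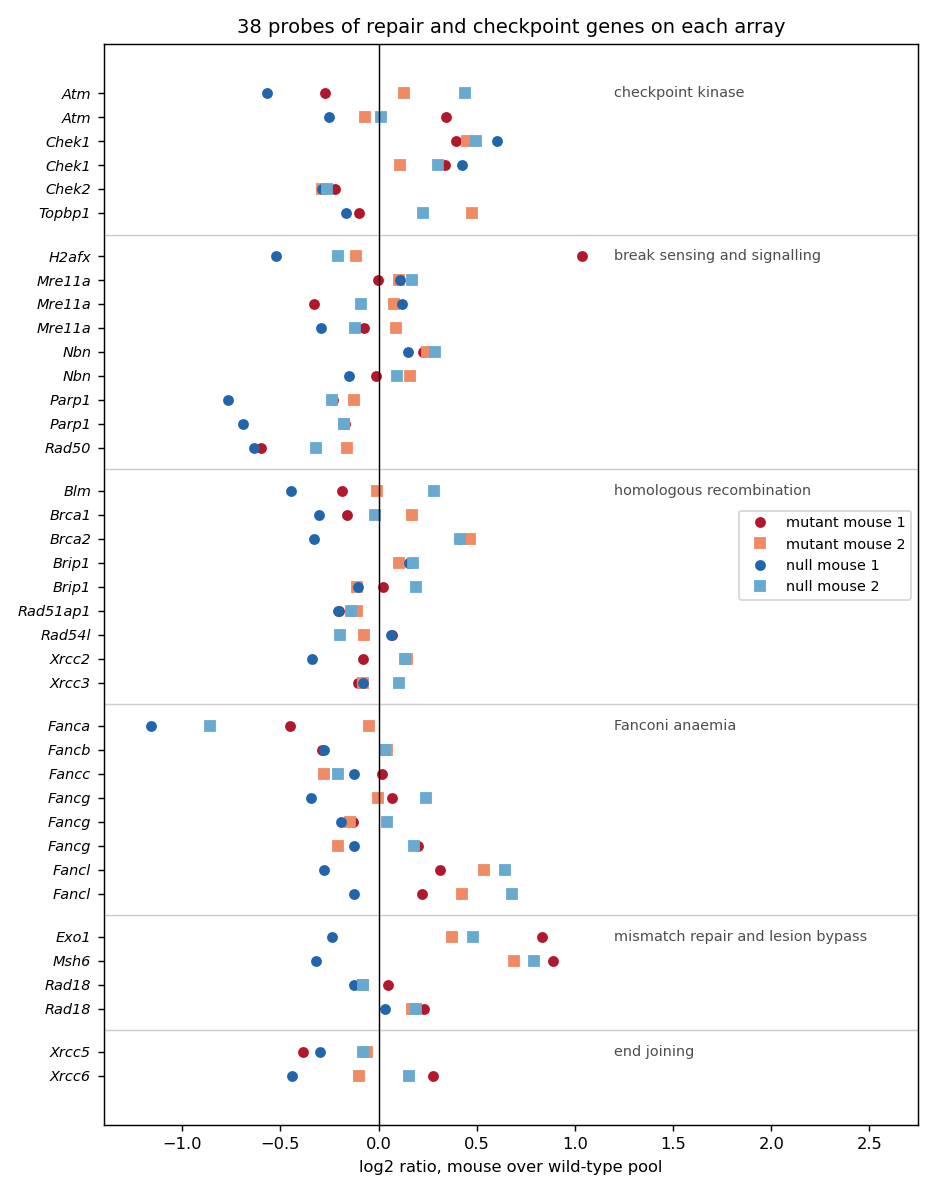
Log2 ratio of mouse over wild-type pool for the 38 tested probes of repair and checkpoint genes, grouped by role, with 1 point per mouse (red for mutant, blue for null) and, within a gene, the brighter probe above. Both Chek1 probes lie right of 0 in all 4 mice, Fanca, Rad50 and Parp1 lie left of 0, and null mouse 1 (dark blue) is often the leftmost point.

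The checkpoint kinases differed among themselves. Chek1, the kinase that slows replication and entry into mitosis when DNA is damaged, lay above the pool in every mouse. Its brighter probe, on chromosome 9 at 36636248 to 36636307 (mm7), had log2 ratios of 0.39 and 0.45 in mutant mice and 0.60 and 0.50 in null mice. Its second probe, starting 239 bases away, was at 0.34 and 0.11 in mutant mice and at 0.43 and 0.30 in null mice. All 4 mice were thus above the pool by both probes, and no mutant mouse was above a null mouse by the brighter one. For the brighter probe the mean of both genotypes was 0.49 on the log2 scale, 1.4-fold (SE 0.09, adjusted p = 0.194 in limma). The mutant minus null difference was -0.13 (SE 0.18, adjusted p = 0.985), smaller than its error. With median centring in place of loess the mean of both genotypes was 0.66 with an adjusted p of 0.0395, but 4260 of all 24914 probes passed in that setting and the median of all probes moved to 0.37. Relative to that median the brighter Chek1 probe was at 0.29 and the second probe at -0.03, so the probes then lay on different sides of it.

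Chek2, the kinase that ATM switches on, was on the other side of the pool. Its tested probe was at -0.22 and -0.29 in mutant mice and at -0.29 and -0.26 in null mice. All 4 values lie below 0 and the genotypes overlap (mean of both -0.27, SE 0.09, adjusted p = 0.247 in limma). The probe is dim, and from the scanner's processed signals it was at -0.80 and -0.71 in mutant mice and at -1.15 and -0.98 in null mice, with a mean of both of -0.91 (adjusted p = 0.2 in limma). By those values both null mice lay below both mutant mice. A second Chek2 probe was not well above background on any array, so the values rest on the tested probe. Topbp1, which activates ATR, was at -0.10 and 0.48 in mutant mice and at -0.17 and 0.23 in null mice, so mice of each genotype fell on both sides of the pool. Atr itself was not found under its name and is not analysed here.

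Atm, the kinase that responds to double-strand breaks, was read by a pair of probes that did not agree. The brighter probe was at -0.27 and 0.13 in mutant mice and at -0.57 and 0.44 in null mice. The dimmer probe was at 0.34 and -0.07 in mutant mice and at -0.25 and 0.01 in null mice. Only mutant mouse 1 and mutant mouse 2 changed sides between the probes, and neither probe separated the genotypes (mutant minus null -0.01, SE 0.38, and 0.26, SE 0.23).

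The dimmer Atm probe was spotted 10 times on each array, which shows how closely 1 array repeats itself. After normexp and loess the 10 spots averaged 0.34 ± 0.11 in mutant mouse 1 and -0.07 ± 0.07 in mutant mouse 2, and -0.25 ± 0.09 in null mouse 1 and 0.03 ± 0.10 in null mouse 2 (SD over 10 spots of 1 array, not over mice). These averages keep spots with an outlier flag, which the fit leaves out, so null mouse 2 reads 0.03 here and 0.01 in the fit. From the scanner's processed signals the same spots averaged 0.68 ± 0.20 and -0.26 ± 0.15 in the mutant mice, and -1.45 ± 0.33 and 0.05 ± 0.16 in the null mice. The order of the mice was kept, and the distances between them were wider. The offset added to the signals before the logarithm draws the ratios of dim probes toward 0, so a log2 value of a dim member understates its change. The 15 member probes with a mean log2 intensity under 7 had a median absolute ratio of 0.14, against 0.28 for the 13 between 7 and 9 and 0.23 for the 10 at 9 or more. All tested probes gave 0.12, 0.21 and 0.23 in the same classes.

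**Figure D2:**
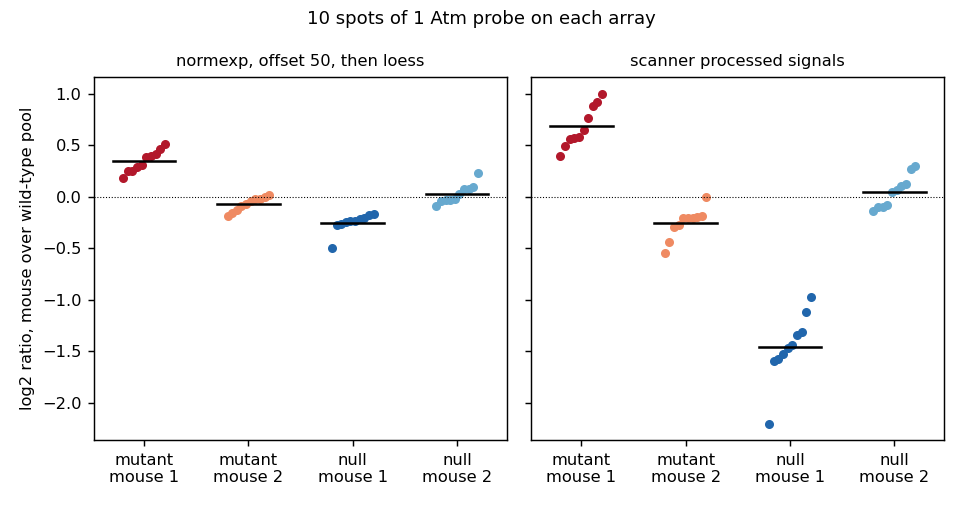
Log2 ratio of mouse over pool at the 10 spots of the dimmer Atm probe on each array (points, sorted within an array) with their mean (bar), after normexp and loess (left) and from the scanner's processed signals (right). The mean of null mouse 1 is -0.25 on the left and -1.45 on the right, while the mice keep their order.

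Among the genes that sense and mark breaks, Rad50 and Parp1 lay below the pool in all 4 mice after loess, a direction that median centring turned for the Parp1 mean of both genotypes and for the mutant mean of Rad50. Rad50, the clamp-like partner of MRE11, was at -0.60 and -0.16 in mutant mice and at -0.64 and -0.32 in null mice. The genotypes overlapped, with a mean of both of -0.43 (0.743-fold, SE 0.12, adjusted p = 0.224 in limma). Under median centring the mutant mean of Rad50 was 0.25, which is below the median of all probes under that setting. A second Rad50 probe was not well above background on any array. Parp1, the enzyme that adds ADP-ribose chains at strand breaks, was at -0.17 and -0.18 in mutant mice and at -0.69 and -0.18 in null mice by the dimmer probe. By the brighter probe it was at -0.23 and -0.12 in mutant mice and at -0.77 and -0.24 in null mice. Null mouse 1 was the lowest by both, and the other 3 mice lay close together. The null mean of the brighter probe was -0.50 with both null mice and -0.24 without null mouse 1. Under median centring the mean of both genotypes was 0.29 by the dimmer and 0.32 by the brighter probe, below the median of all probes of 0.37, while the null means were -0.14 by the dimmer and -0.16 by the brighter probe.

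The probe sequences, copied from the array files, are shown because the Parp1 probes are not separate readings of the gene. The capitals mark the 40 bases that both hold. The probes map to chr1:180580265-180580563 and chr1:180580285-180580583 on the plus strand and the Rad50 probe to chr11:53608997-53609056 on the minus strand (mm7). Each Parp1 probe of 60 bases covers 299 bases of genome.
Parp1 dimmer probe: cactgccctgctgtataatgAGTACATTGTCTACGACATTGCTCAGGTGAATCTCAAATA
Parp1 brighter probe: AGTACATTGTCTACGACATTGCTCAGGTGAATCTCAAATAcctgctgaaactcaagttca
Rad50 probe: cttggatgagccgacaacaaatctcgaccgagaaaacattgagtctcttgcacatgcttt
This was the only pair of 28 pairs of member probes to 1 gene with 20 or more bases in common. The Parp1 probes, within 0.08 of each other on every array, are therefore not independent. The Chek1 and Fancl probe pairs, which share no such run, also had 1 sign per array on all 4 arrays.

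Nbn, the third subunit of the break-sensing complex, was at 0.23 and 0.24 in mutant mice and at 0.15 and 0.29 in null mice by its brighter probe. All 4 mice were above the pool by this probe (mean of both 0.23, SE 0.09, adjusted p = 0.286). The dimmer probe was at -0.01 and 0.16 in mutant mice and at -0.15 and 0.10 in null mice, with mice of each genotype on both sides of 0. Mre11a, the nuclease of the complex, had 3 tested probes. The brightest was at -0.00 and 0.11 in mutant mice and at 0.11 and 0.17 in null mice. The next was at -0.33 and 0.08 in mutant mice and at 0.12 and -0.09 in null mice. The dimmest was at -0.08 and 0.09 in mutant mice and at -0.30 and -0.12 in null mice. By the brightest probe both null mice lay above both mutant mice, though null mouse 1 (0.107) barely passed mutant mouse 2 (0.105). By the dimmest probe both null mice lay below both mutant mice. The mutant minus null differences were -0.09 (SE 0.18) and 0.22 (SE 0.19). Their signs differ, but neither is far beyond its error, so no direction between the genotypes can be read from Mre11a.

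H2afx, the histone variant phosphorylated around breaks, had the largest mutant minus null difference of any member. It was at 1.04 and -0.11 in mutant mice and at -0.52 and -0.21 in null mice. The mutant mice lay above the null mice, but mutant mouse 2 lay close to null mouse 2 and mutant mouse 1 carried most of the distance. The mutant mean was 0.46 ± 0.81 and the null mean -0.36 ± 0.22 (SD, n = 2 each), a difference of 0.83 (SE 0.41, adjusted p = 0.985 in limma). Without mutant mouse 1 the difference was 0.25.

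In the Fanconi anaemia group Fanca, part of the core complex that acts on crosslinked DNA, stood lowest of all members. Its tested probe, on chromosome 8 at 121909380 to 121909439 (mm7), was at -0.45 and -0.05 in mutant mice and at -1.16 and -0.86 in null mice. All 4 mice were below the pool, and both null mice lay below both mutant mice. The mutant mean was -0.25 ± 0.29 and the null mean -1.01 ± 0.21 (SD, n = 2 each), which is 0.84-fold and 0.496-fold of the pool. The difference of 0.76 (SE 0.23) was the only one between the genotypes with an unadjusted p under 0.05 among the member probes, and it did not pass after adjustment (adjusted p = 0.985 in limma). Against the pool the adjusted p was 0.473 in null mice and 0.194 for the mean of both genotypes. Without null mouse 1 the difference was 0.61 and without mutant mouse 2 it was 0.56, so the direction did not turn. Without null mouse 1 no member probe had an unadjusted p under 0.05 between the genotypes. A second Fanca probe was not well above background on any array, so the values rest on 1 probe.

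Fancl, the ubiquitin ligase subunit of the same complex, was at 0.32 and 0.54 in mutant mice and at -0.28 and 0.64 in null mice by its brighter probe. The dimmer probe was at 0.22 and 0.43 in mutant mice and at -0.12 and 0.68 in null mice. By both probes 3 mice were above the pool and null mouse 1 was below it. Fancg, read by 3 probes, showed no such pattern. From the brightest to the dimmest probe it was at 0.07, -0.13 and 0.20 in mutant mouse 1 and at -0.00, -0.15 and -0.21 in mutant mouse 2. In null mouse 1 it was at -0.34, -0.19 and -0.12 and in null mouse 2 at 0.24, 0.04 and 0.18. Fancb and Fancc had genotype means between -0.12 and -0.17 in both genotypes. Both probes of Fancd2, the protein that the core complex marks with ubiquitin, failed the filter on dim probes. Fanci was found by its accession under an older name, and its bright enough probe was at 0.13 and 0.00 in mutant mice and 0.03 and 0.08 in null mice.

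Among the homologous recombination genes Brca2 lay furthest from the pool in mutant mice. This mediator of recombination at resected DNA was at 0.41 and 0.47 in mutant mice and at -0.33 and 0.42 in null mice. Of the 4 mice null mouse 1 alone was below the pool, and the mutant minus null difference of 0.39 (SE 0.29, adjusted p = 0.985) was 0.02 without that mouse. Brca1, its partner in the same pathway, was at -0.16 and 0.17 in mutant mice and at -0.30 and -0.02 in null mice. Brca1 and Brca2 each rest on 1 probe, as a second probe of each was not well above background on any array. Rad51ap1, a recombination cofactor, lay between -0.21 and -0.11 in all 4 mice. The Brip1 helicase had 1 probe at 0.16 and 0.10 in mutant mice and 0.15 and 0.17 in null mice, while its other probe was at 0.02 and -0.11 in mutant mice and -0.11 and 0.19 in null mice. Blm, the Bloom helicase, was at -0.19 and -0.01 in mutant mice and -0.45 and 0.28 in null mice. The genotype means of Rad54l, Xrcc2 and Xrcc3 all lay between -0.10 and 0.03.

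For 5 member probes, of Brip1, Rad54l, Xrcc2 and Xrcc3, the filter was passed only through the mutant mice, which had to be bright for the probe to be kept. In addition Rad54l and 1 Rad18 probe were not well above background in the pool channel on any array. For Rad18 the mice were at least 1.1-fold brighter than that floor (adjusted p = 0.412), and for Rad54l no fold can be given. The single Bard1 probe failed the filter, and Palb2 was not found under its name and is not analysed here. Rad54b was found by its accession under an older name, at -0.06 and 0.06 in mutant mice and -0.17 and 0.04 in null mice.

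The highest mutant means belonged to the mismatch repair members. Msh6, a mismatch recognition subunit, was at 0.89 and 0.69 in mutant mice and at -0.32 and 0.79 in null mice. Exo1, the exonuclease of mismatch repair and end resection, was at 0.83 and 0.37 in mutant mice and at -0.24 and 0.48 in null mice. For both genes the mutant mice and null mouse 2 lay above the pool and null mouse 1 lay below it. Against the pool the mutant mean was 0.79 ± 0.14 for Msh6 (1.73-fold, adjusted p = 0.454 in limma) and 0.60 ± 0.33 for Exo1 (1.52-fold, adjusted p = 0.463), each with SD over n = 2. The mutant minus null difference of Msh6 was 0.55 (SE 0.40) with all mice and -0.0043 without null mouse 1. That of Exo1 was 0.48 (SE 0.32) and 0.12 without null mouse 1. Rad18, the ubiquitin ligase that starts lesion bypass, was at 0.05 and -0.08 in mutant mice and at -0.13 and -0.08 in null mice by its brighter probe. Its dimmer probe was at 0.23 and 0.17 in mutant mice and at 0.03 and 0.19 in null mice, so the probes did not give 1 sign. From the scanner's processed signals the dimmer probe was at 1.62 and 1.609 in mutant mice and at 0.846 and 1.495 in null mice. Its pool signal was not well above background on any array, and the size of its ratio changed with the processing.

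The end joining members are the Ku subunits, which hold broken ends. Xrcc5 was at -0.39 and -0.06 in mutant mice and at -0.30 and -0.08 in null mice, below the pool in every mouse. Xrcc6 was at 0.28 and -0.10 in mutant mice and at -0.44 and 0.16 in null mice, with both genotypes on both sides. The proteins act as a pair, and their probes did not follow each other across the 4 mice.

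**Figure D3:**
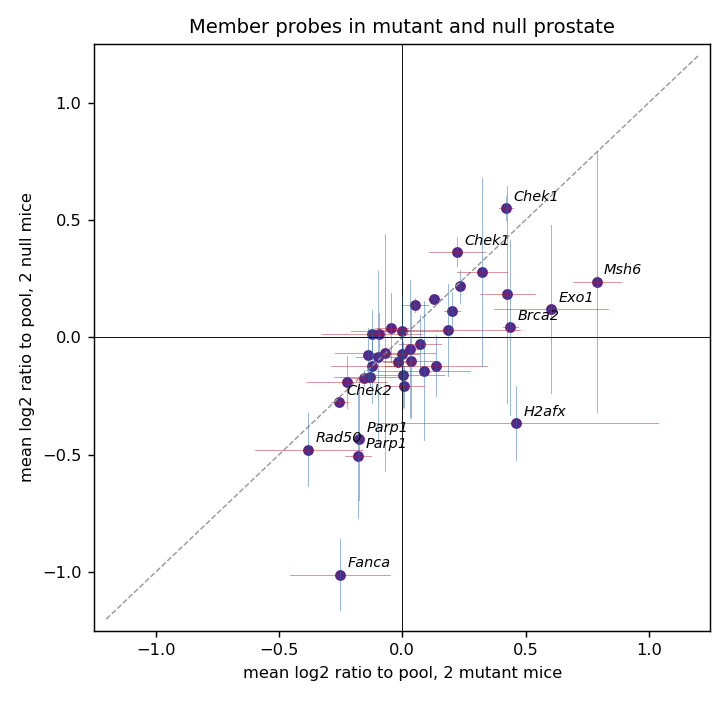
Mean log2 ratio to the pool of the 2 mutant mice (horizontal axis) against that of the 2 null mice (vertical axis) for the 38 member probes, with thin lines spanning the 2 mice of each genotype. Fanca and H2afx lie below the dashed line of equality, and the lines of Msh6, Exo1 and Brca2 show the distance between the null mice. Both axes share the pool, so points along the diagonal are not independent readings.

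Counted over the members, the genotypes did not overlap for 5 probes higher in mutant mice, of Fanca, H2afx, Mre11a, Parp1 and Rad18. They did not overlap for 3 probes lower in mutant mice, of Chek1, Mre11a and Xrcc3. These are 13.2% and 7.89% of the member probes, below the shares over all probes of 16.8% and 13.7%. All 4 mice were above the pool at 5 member probes, of Brip1, Chek1, Nbn and Rad18, which is 13.2% against 16.6% of all probes. All 4 were below it at 7, of Chek2, Fanca, Parp1, Rad50, Rad51ap1 and Xrcc5, which is 18.4% against 14.8% of all probes. Of the probes above the pool, that of Brip1 passed the filter only through the mutant mice. That of Rad18 was not well above background in the pool on any array. Both were kept for a bright mouse channel, so their place above the pool is partly set by the filter.

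The level of the members moved with null mouse 1. The median member ratio was 0.01 and 0.02 in the mutant pair, and -0.25 and 0.12 in null mice 1 and 2. Over all tested probes the medians were 0.03 and 0.02 in the mutant mice and -0.01 and 0.01 in the null mice. The members thus lay lower than the array as a whole in null mouse 1 and higher in null mouse 2. The median mutant minus null difference of the members was 0.07 with all mice, -0.042 without null mouse 1 and 0.24 without null mouse 2. Proliferation genes moved in the same mice: 25 probes had medians of 0.35 and 0.23 in mutant mice and of -0.10 and 0.41 in null mice. Fibroblast markers, 7 genes, did so too, with mean ratios of 0.54 and 0.58 in mutant mice and of -0.76 and 0.93 in null mice. The part of proliferation, of other cell types, of the low signal and of the heat shock genes of null mouse 1 in these values was not tested.

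**Figure D4:**
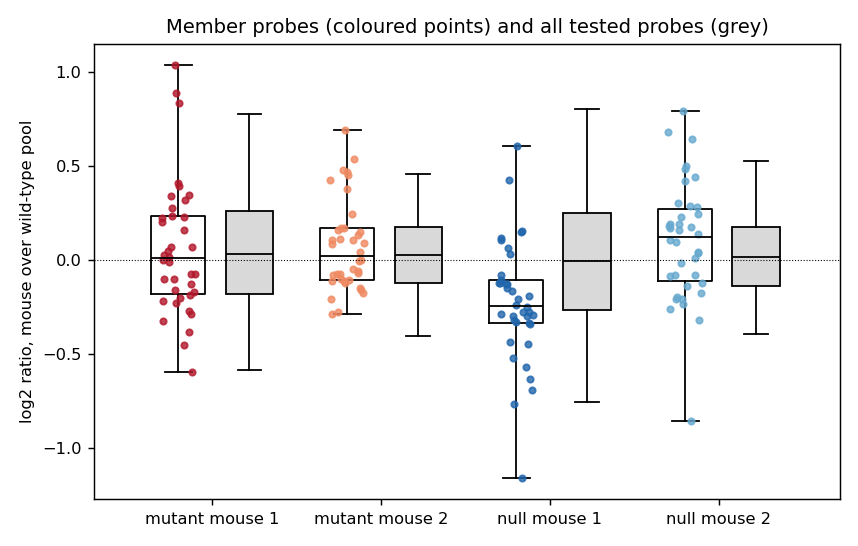
Log2 ratio of mouse over pool on each array for the 38 member probes (coloured points, with a box for the quartiles and whiskers to the lowest and highest) and for all 24914 tested probes (grey box, with whiskers at the 5th and 95th percentiles). The member median is -0.25 in null mouse 1, against 0.01 to 0.12 in the other 3 mice.

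Single cell-cycle genes did not all follow the list. Pcna, the replication clamp, was at 0.84 and 0.72 in mutant mice and at 0.65 and 0.79 in null mice, above the pool in all 4 mice (mean of both 0.75, adjusted p = 0.178 in limma). Mcm5, of the replicative helicase, was at 0.55 and 0.59 in mutant mice and at -0.10 and 0.73 in null mice. As with Msh6 and Brca2, null mouse 1 alone was below the pool. Mki67, the gene of the Ki-67 antigen, was below the pool in all 4 mice by both of its probes. The p53 target Cdkn1a, an inhibitor of cyclin-dependent kinases, was at -0.26 and -0.75 in mutant mice and at 1.11 and -0.71 in null mice. The 14 probes of p53 targets had medians of -0.22 and -0.14 in mutant mice and of 0.11 and -0.15 in null mice. Both Trp53 probes together ranged from -0.40 to 0.53 over the 4 mice.

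Repair genes outside the 33 lay close to the average probe. They numbered 85 tested genes with 135 probes, in lists of recombination, Fanconi, checkpoint, end joining, mismatch, base excision, nucleotide excision and lesion bypass genes. None passed the threshold in limma, and at an unadjusted p under 0.05 in the mean of both genotypes 15 probes (11.1%) were higher and 11 (8.15%) lower than the pool, where all probes gave 9.31% and 8.27%. Their medians were -0.00 and 0.01 in mutant mice and -0.06 and 0.02 in null mice. The 21 nucleotide excision probes were lowest among these lists in mutant mouse 1 at -0.17, with -0.02 in mutant mouse 2, and with -0.29 and -0.06 in null mice 1 and 2. The 13 end joining probes outside the members were at -0.02 and 0.04 in mutant mice and at -0.37 and -0.04 in null mice.

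Of single genes in these lists, Ung, the uracil glycosylase that opens base excision repair, had the smallest p against the pool. It was at 0.87 and 0.42 in mutant mice and at 1.32 and 0.77 in null mice, with a mean of both of 0.84 (SE 0.14, adjusted p = 0.193 in limma). Rnf168, a ubiquitin ligase at breaks, was at 0.49 and 0.31 in mutant mice and at 0.67 and 0.55 in null mice. These probes, and a second Rnf168 probe, were above the pool in all 4 mice. Ube2a, the ubiquitin-conjugating partner of RAD18, had a pair of probes that did not agree. It was at 1.03 and 0.66 in mutant mice and at 0.23 and 0.55 in null mice by the probe of smaller p, and at -0.59 and -0.16 in mutant mice and at 0.31 and -0.20 in null mice by the other. Rpa3, a subunit of the protein that coats single strands, was at 0.25 and 0.44 in mutant mice and at 0.41 and 0.65 in null mice. Xpc, the damage sensor of nucleotide excision repair, was at -0.99 and -0.49 in mutant mice and at -0.54 and -0.29 in null mice, below the pool in all 4, as was its second probe.

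Between the genotypes the smallest p outside the members was that of Dclre1c, the Artemis nuclease of end joining. By that probe it was at 0.33 and 0.31 in mutant mice and at -0.53 and -0.33 in null mice, so the genotypes were 0.75 apart (SE 0.18, adjusted p = 0.985 in limma). A second Dclre1c probe was at -0.11 and 0.13 in mutant mice and at -0.44 and -0.30 in null mice, a difference of 0.38, and the dimmest differed by 0.05. The distance between the genotypes thus varied with the probe. Rad51l3, a recombination gene, was at 0.30 and 0.08 in mutant mice and at -0.56 and -0.25 in null mice by the probe of smallest p. Its 2 other probes gave mutant minus null differences of 0.28 and -0.10, so the probes did not give 1 direction. Polm, a polymerase of end joining, was at 0.31 and 0.04 in mutant mice and at -0.99 and -0.10 in null mice, where null mouse 1 carried most of the distance.

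**Figure D5:**
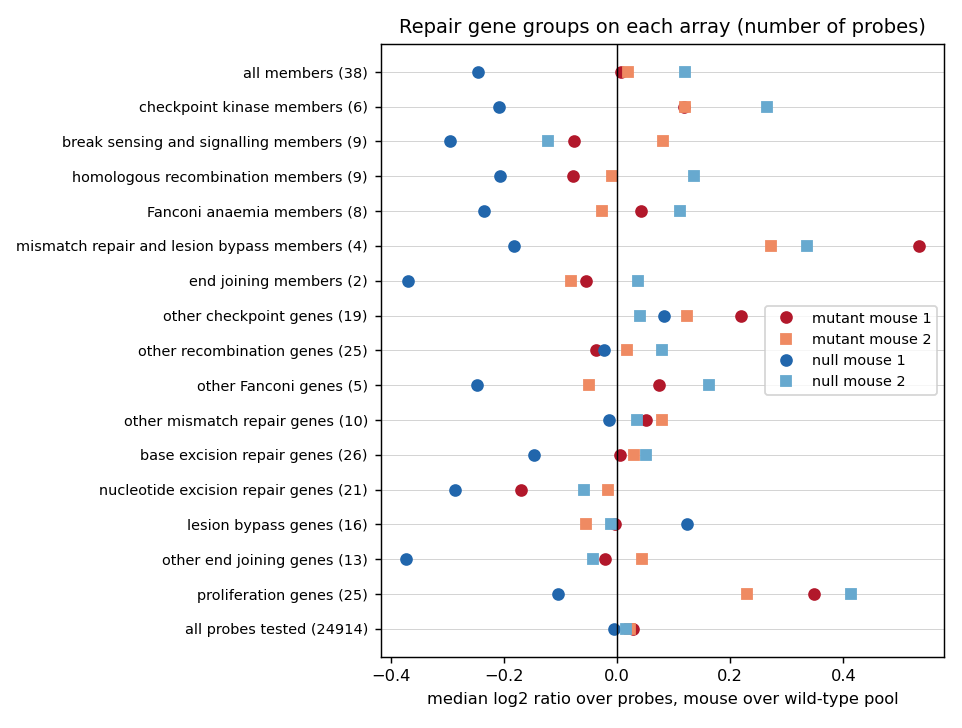
Median log2 ratio of mouse over pool for each group of repair genes on each array, with the number of probes in brackets and proliferation genes and all tested probes at the bottom. The mismatch repair and lesion bypass members reach 0.53 in mutant mouse 1 and lie at -0.18 in null mouse 1. Null mouse 1 gives the lowest median for all 6 groups of members.

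The authors' deposited table lists group mean ratios without values per array. The authors' deposited table holds 41 rows for 23 of the member genes, 32 of them higher in mutant mice (78.0%) and 9 lower. Of all 26174 rows in the authors' deposited table, 51.7% are higher in mutant mice. It has no ratio of the group means under 1.13, so members near no difference are missing from it. For Fanca the authors' deposited table gives a mean ratio to the pool of 0.694 in mutant mice and 0.327 in null mice, and for H2afx it gives 1.26 in mutant mice and 0.675 in null mice. In the authors' deposited table both Chek1 rows are above 1 in both genotypes, and the first is at 1.51 in mutant mice and 1.76 in null mice. The directions are those of the log2 ratios above, and the sizes for Chek1 and Fanca are larger there. Of the 41 rows in the authors' deposited table, 10 are the repeated spots of the dimmer Atm probe, all higher in mutant mice, so these rows are not separate observations. The brighter Atm probe, with a mutant minus null difference of -0.01 in the log2 ratios above, has no row there. By the authors' deposited table, 22 of the other 31 member rows are higher in mutant mice. Some of these rows come from probes of Brca1, Brca2, Nbn and Xrcc2 that failed the filter here, and some genes have more than 1 row. Group means do not show single mice. In the log2 ratios above, the member median of mutant minus null was -0.042 without null mouse 1.

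Promoters were read because E2F proteins bind short GC-rich words near the start of many replication genes. RefSeq sequence (GRCm38.p6) from 250 bases before to 50 bases after the start was matched for 26 of the 33 genes. The words searched, on both strands, were TTTCCCGC, TTTCGCGC, TTTGCCGC and TTTGGCGC. At least 1 of them occurred in 7 of the 26 member genes (26.9%: Bard1, Brca2, Chek2, Fancg, Msh6, Topbp1 and Xrcc6), against 2.6% of 27025 genes. A further word, GGCGGGAA, was added after the Chek1 sequence had been read. It occurred in 4 of the 26 (15.4%: Chek1, Fancb, Msh6 and Rad51ap1), against 2.52% of all genes, and it can overlap TTTCCCGC on the other strand. Chek1 is among the 4 because the word was taken from it, and in Msh6 the word lies over the TTTCCCGC already counted. The share of this word in the members therefore cannot be weighed against that of all genes. The Chek1 promoter is shown as that of the only member, among those the arrays name, above the pool in all 4 mice by every tested probe. Fanci, found under an older name, also lay above the pool in all 4 mice by its bright enough probe, at 0.003 to 0.13. The Msh6 promoter is shown as that of the member with the highest mean in mutant mice. The windows are chr9:36726609-36726908 on the minus strand for Chek1 and chr17:87974800-87975099 on the plus strand for Msh6. Capitals mark the words found.
Chek1 promoter: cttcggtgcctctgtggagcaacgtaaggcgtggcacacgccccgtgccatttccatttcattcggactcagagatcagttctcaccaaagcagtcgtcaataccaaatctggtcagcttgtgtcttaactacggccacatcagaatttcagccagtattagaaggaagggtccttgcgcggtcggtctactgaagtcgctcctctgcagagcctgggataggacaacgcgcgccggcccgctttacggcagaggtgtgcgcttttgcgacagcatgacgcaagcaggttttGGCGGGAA
Msh6 promoter: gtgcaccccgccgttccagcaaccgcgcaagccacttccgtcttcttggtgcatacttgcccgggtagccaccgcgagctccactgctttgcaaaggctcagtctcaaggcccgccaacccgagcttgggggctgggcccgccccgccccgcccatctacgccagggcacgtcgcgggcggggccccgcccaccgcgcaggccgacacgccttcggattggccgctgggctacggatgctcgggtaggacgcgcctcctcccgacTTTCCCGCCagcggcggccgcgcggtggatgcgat
The 8 tested probes of member genes with 1 of the first 4 words had medians of 0.13 and -0.05 in mutant mice and of -0.30 and 0.20 in null mice. The 24 probes of members without them had medians of -0.04 and 0.02 in mutant mice and of -0.17 and 0.02 in null mice. Members with a word included Msh6 and Brca2, above the pool in 3 mice, and Chek2, below it in all 4. A match in the letters is a description and not a site of binding.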

How the data were processed

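Scanner files held the spot brightness as intensity, per the file headers read with Agilent Feature Extraction 9.5.1.1; the submitters' processing notes name another version. The authors' deposited table of group means gives a linear ratio without values per array. The scanner's log10 ratio of red over green was deposited too, per the file headers. Mean signals were corrected against background medians by normexp (offset 50) and normalised within arrays by loess in limma 3.58.1 (R 4.3.3). Loess gave control spots a weight of 0, and spots carrying an outlier flag were removed. Probes well above background in both mice of a genotype, or in the pool on all 4 arrays, were kept (24914 fitted), and lmFit and eBayes fitted a term for each genotype. Adjusted p are Benjamini-Hochberg values over all these probes.

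Because the pool is a single control, the tests against it hold no spread among wild-type animals, and all comparisons with it share it. Dyes were not swapped. All 4 arrays lay on 1 slide read in 1 scan, and each genotype sat on adjacent positions, so that the genotype and the position cannot be told apart. The labels name 2 separate mice per genotype. Members and lists were chosen with earlier results of these data known. Values per array are given for the 8 member probes of smallest p in each comparison, for genes with several probes and, more briefly, for the others; other repair genes are the 3 probes of smallest p in each, of which 1 gene is not reported here. Probe positions are those of the files (mm7), whose annotation was not used here. The fit was tested on simulated mutant minus null differences. It recovered 1 of 50 changes of 2-fold and 20 of 50 of 4-fold, with 9 unchanged probes called. Changes of 2-fold were thus mostly missed, so the absence of a call does not show the absence of such a change. Alternatives are given in the closing section. An "at least" fold sets the mouse channel against the lowest signal well above background in the pool, in single channels normalised by loess and Aquantile, and can carry dye bias.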

Additional observations from a re-analysis of the deposited data

How the results depend on the processing

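All but 5 of the 405 values recomputed for named member probes kept their direction and their side of the threshold. The changed filters, the brightest-probe choice, the intensity trend and the replicate block reuse the same ratios, so no direction could turn there. Leaving out a null mouse cannot move the mutant mice against the pool. No named value passed in the main fit, so this count is not a measure of robustness. With median centring in place of loess, Parp1 was at 0.29 and 0.32 in the mean of both genotypes by its dimmer and brighter probes and Rad50 at 0.25 in mutant mice, while the median of all probes moved to between 0.14 and 0.60. Chek1 passed there (adjusted p = 0.0395). Msh6, mutant minus null, ranged from -0.0043 (without null mouse 1) to 1.11 (without null mouse 2). Under median centring the member median was 0.35 between mutant and null mice and 0.28 in mutant mice against the pool, and 2 of 38 member probes, of Chek1 and Nbn, passed in the mean of both genotypes, where 4260 of all 24914 probes passed. No member passed under any other alternative.

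Leaving out 1 mouse at a time put the member median between -0.042 and 0.24 for mutant minus null and between -0.25 and 0.12 for null mice against the pool. Counts over all probes past the threshold ranged from 0 to 9 for mutant minus null, from 0 to 2 for mutant mice against the pool, from 0 to 380 for null mice against the pool (380 without null mouse 2) and from 0 to 325 for the mean of both genotypes (36 without null mouse 1, 325 without null mouse 2). Mutant mice against the pool gave 1 probe, and 0 with processed signals, median centring, equal spread, no filter, outlier spots kept or the replicate block. It gave 2 with the stricter filter or the brightest probe of each gene and 3 with an intensity trend. Null mice against the pool gave 0, and 2 with the stricter filter or the trend. The mean of both genotypes gave 3, and 6 with processed signals, 0 with equal spread, no filter or the replicate block, 5 with the stricter filter and 33 with the trend. The cause was not tested. Mouse numbers share only a number: same-numbered mice deviated together with r = 0.00359, and the replicate block left 0 member probes past the threshold. Dim members, under a mean log2 intensity of 7, are limited by signal over background.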
